A study of Mus musculus with 48 samples.

Results

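The proteasome is the barrel-shaped protease that degrades most ubiquitin-tagged proteins, and the genes of its standing form were followed here in mouse lung after cigarette smoke and on a high-fat diet. The genes were those whose annotated symbol begins with Psma to Psmg and a digit, without Psmb8, Psmb9 and Psmb10, which encode the interferon-inducible catalytic subunits. The rule took 45 of the 12393 genes measured. Of these, 8 encode the alpha rings of the 20S core, 3 its catalytic beta subunits and 4 its other beta subunits. A further 6 encode the ATPases of the 19S regulatory particle, 11 its other subunits, 3 alternative activators, 1 an inhibitor and 7 assembly chaperones. The remaining 2 matched the pattern by name alone: Psmc3ip is a cofactor of meiotic recombination, and Psme3ip1 encodes a protein that binds an activator. Counts over the proteasome proper are therefore given for 43 genes. Psme2 shared its probe set with Psme2b and was not counted, and Psmb11 was not analysed here. The rule reads only symbols, although it was set with earlier results of these data known.

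RNA of whole lung was measured on Affymetrix arrays in male C57BL/6 mice, 48 arrays in 6 groups of 8. Each array was taken as a separate animal by its title, although the source labels of arrays 7 and 8 of RW-MS and RW-SS repeat the replicate numbers 5 and 6. Regular-weight animals (RW) ate a diet with about 5 kcal% fat, and diet-induced obese animals (DIO) one with 60 kcal% fat, begun at 6 weeks of age. The labels count 9 weeks of that diet up to an LPS exposure, while no sample is labelled with LPS. From 15 weeks of age they breathed filtered air (sham control, SC), mainstream smoke (MS), which a smoker draws in, or sidestream smoke (SS), which comes off the burning tip. Exposure was nose-only, 5 hours a day, 8 times over 2 weeks, and lungs were taken on the next day. All animals were of 1 strain and sex, so no result extends to females. The labels state no smoke concentrations, and so a difference between the smokes is one between exposures as delivered.

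The 20S core is a stack of rings, with alpha subunits forming the gates at its ends and beta subunits lining the chamber where proteins are cut. The 19S particle docks on the gates, binds ubiquitin chains, removes them and threads the unfolded protein inwards with a ring of ATPases. Proteasome genes are known to be regulated together, with NRF1 raising them when proteasome activity is short and NRF2 raising some of them under oxidative stress. Interferon instead induces the immunoproteasome subunits and the PA28 activator, which shape peptides for MHC class I.

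The tissue label was borne out by lung markers: over the 48 arrays the log2 signal of Sftpc, the surfactant protein of alveolar type 2 cells, lay between 14.97 and 15.13, and that of the club cell gene Scgb1a1 between 15.08 and 15.27. Both genes lie near the highest value of the data, 15.27. Other lung markers ranged more widely, such as Aqp5 from 11.32 to 12.45 and Cdh5 from 9.99 to 11.13. A set of 5 arrays stood apart, DIO-SC-3, DIO-SC-7, RW-SS-6, DIO-MS-1 and DIO-MS-6, named by group and animal. Their mean correlation with the other arrays was 0.954 to 0.979, against 0.986 to 0.991 for the other 43. Array DIO-SC-3 carried skeletal muscle markers at a mean log2 signal of 12.45 against a median of 6.30 in its group, and DIO-SC-7 thymocyte markers at 10.93. Brown and white fat markers stood at 10.58 on RW-SS-6, against a median of 5.38 in its group. Calls that rest on these arrays are given with and without them. In whole tissue, fewer cells of a type and less RNA per cell cannot be told apart.

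Proteasome RNA varied little. A difference between groups is given below on the log2 scale with its standard error from a linear model over all 48 arrays (limma). A gene was called where the Benjamini-Hochberg adjusted p over the 12393 genes was below 0.05. In 10 of the 11 comparisons the 95% interval of all 45 genes lay inside a 1.5-fold change in either direction. The exception was Psme1, when the responses of the diets to mainstream smoke were compared. For comparison, between 87% and 94.8% of all genes lay inside that bound in those 10 comparisons, and 86.2% in the other. The median standard deviation within a group was 0.10 for the 45 genes and 0.16 for all genes, and the median span of the 6 group means was 0.15 and 0.23. The genes were also bright, 39 of the 45 having a mean log2 signal above 9 against 36.5% of all genes. The part of brightness in the small spread was not tested. With all arrays the span was smallest for the chaperone Psmd5, at 0.05, and largest for the activator Psme1, at 0.41.

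**Figure D1:**
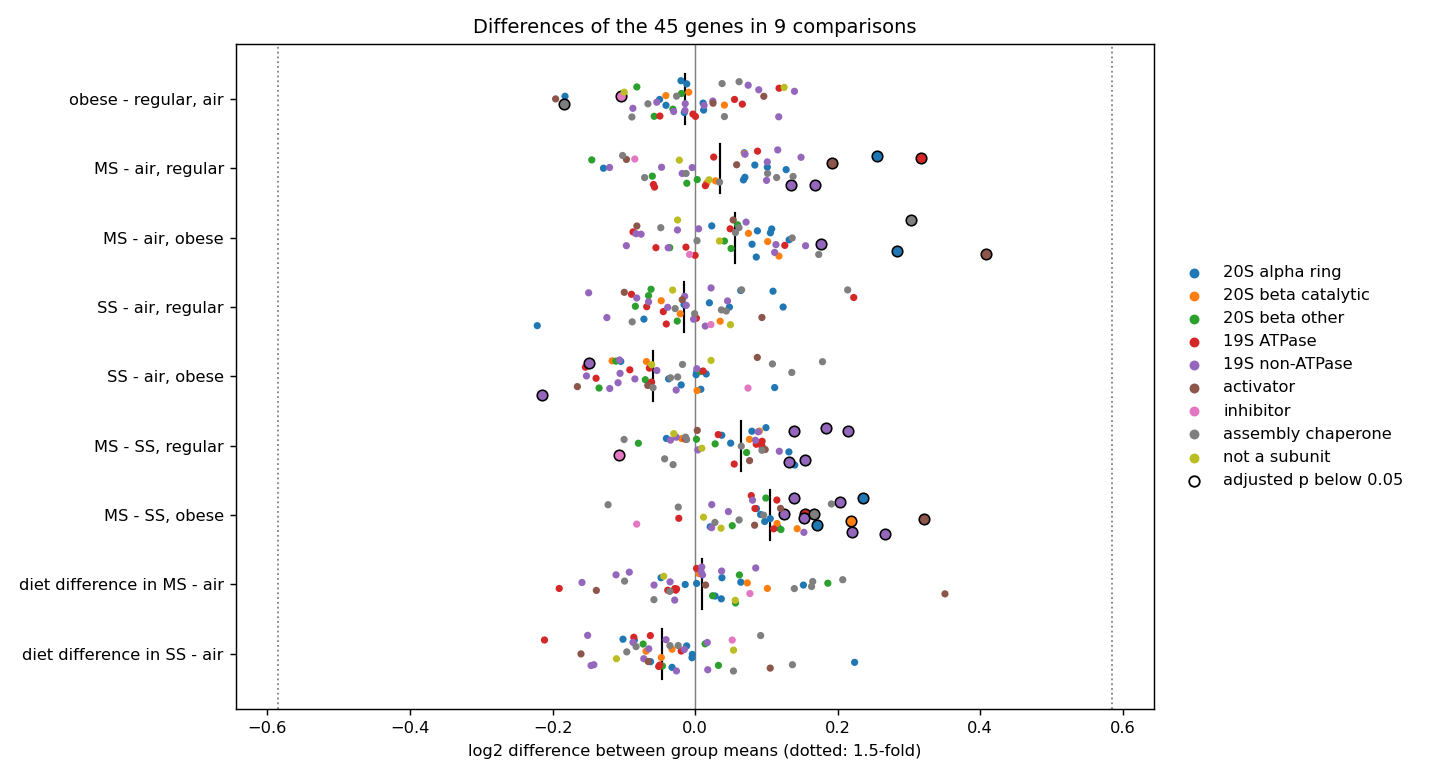
Log2 differences between group means (x axis) of the 45 genes in 9 comparisons (y axis), coloured by role; black vertical ticks are medians, ringed points have an adjusted p below 0.05, and dotted lines mark 1.5-fold. Every point lies between the dotted lines, and the medians for mainstream minus sidestream smoke, 0.06 in regular-weight and 0.11 in obese animals, lie to the right of 0.

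The 3 catalytic genes of the standard core did not pass the test in any comparison with air or between diets with all arrays. Psmb5 encodes the chymotrypsin-like subunit, Psmb6 the caspase-like and Psmb7 the trypsin-like one. The log2 signal of Psmb5 had a lowest, median and highest value of 10.96, 11.17 and 11.37 in RW-SC, 11.07, 11.15 and 11.30 in RW-MS and 10.92, 11.14 and 11.20 in RW-SS. In obese animals the same 3 values were 10.98, 11.22 and 11.37 in DIO-SC, 11.10, 11.34 and 11.52 in DIO-MS and 10.97, 11.09 and 11.14 in DIO-SS. The groups overlapped, with DIO-MS the highest and DIO-SS the lowest. Psmb5 differed by 0.10 ± 0.06 (SE; adjusted p = 0.21, limma) between mainstream smoke and air in obese animals and by -0.12 ± 0.06 (adjusted p = 0.22) between sidestream smoke and air. In regular-weight animals its differences from air were 0.03 and -0.05. Its 95% interval in these 4 comparisons ran from -0.23 to 0.22 at the extremes. Psmb6 gave 0.07 ± 0.05 for mainstream smoke in either diet (adjusted p = 0.43 and 0.35). Psmb7 gave 0.02 ± 0.07 in regular-weight and 0.12 ± 0.07 in obese animals (adjusted p = 0.91 and 0.23); without DIO-SC-7, its highest array in obese air controls, the value in obese animals was 0.17 with an adjusted p of 0.037, and without all 5 arrays that stand apart it was 0.16 with an adjusted p of 0.062.

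NRF2 acts through the antioxidant response element, and the stretch upstream of the start of Psmb5 and Psmb6 held a match to its core, TGACNNNGC on either strand. Both sequences are shown for that reason. They are the 250 bases before the annotated start, from RefSeq on assembly GRCm38.p6, printed 5′ to 3′ on the gene's strand with the match in capitals, chr14:54617996-54618245 on the minus strand for Psmb5 and chr11:70525107-70525356 on the plus strand for Psmb6.
Psmb5: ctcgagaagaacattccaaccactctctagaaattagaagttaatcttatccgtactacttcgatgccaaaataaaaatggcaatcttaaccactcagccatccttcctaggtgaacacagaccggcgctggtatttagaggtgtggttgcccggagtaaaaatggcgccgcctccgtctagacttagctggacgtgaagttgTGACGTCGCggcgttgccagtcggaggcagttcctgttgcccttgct
Psmb6: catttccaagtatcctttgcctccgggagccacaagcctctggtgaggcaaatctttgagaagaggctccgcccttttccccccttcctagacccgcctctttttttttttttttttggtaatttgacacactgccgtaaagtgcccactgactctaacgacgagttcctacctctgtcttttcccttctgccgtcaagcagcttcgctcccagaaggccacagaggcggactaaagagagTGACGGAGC
The match ran from base 47 to base 39 before the start of Psmb5 and from base 9 to base 1 before that of Psmb6. A window was at hand for 37 of the 45 genes, and 5 of them (13.5%) held the motif, against 11.5% of 27025 genes and 13.5% of the 9888 that the array names. A match is only a run of letters, and it was not tied here to binding or to a response.

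**Figure D2:**
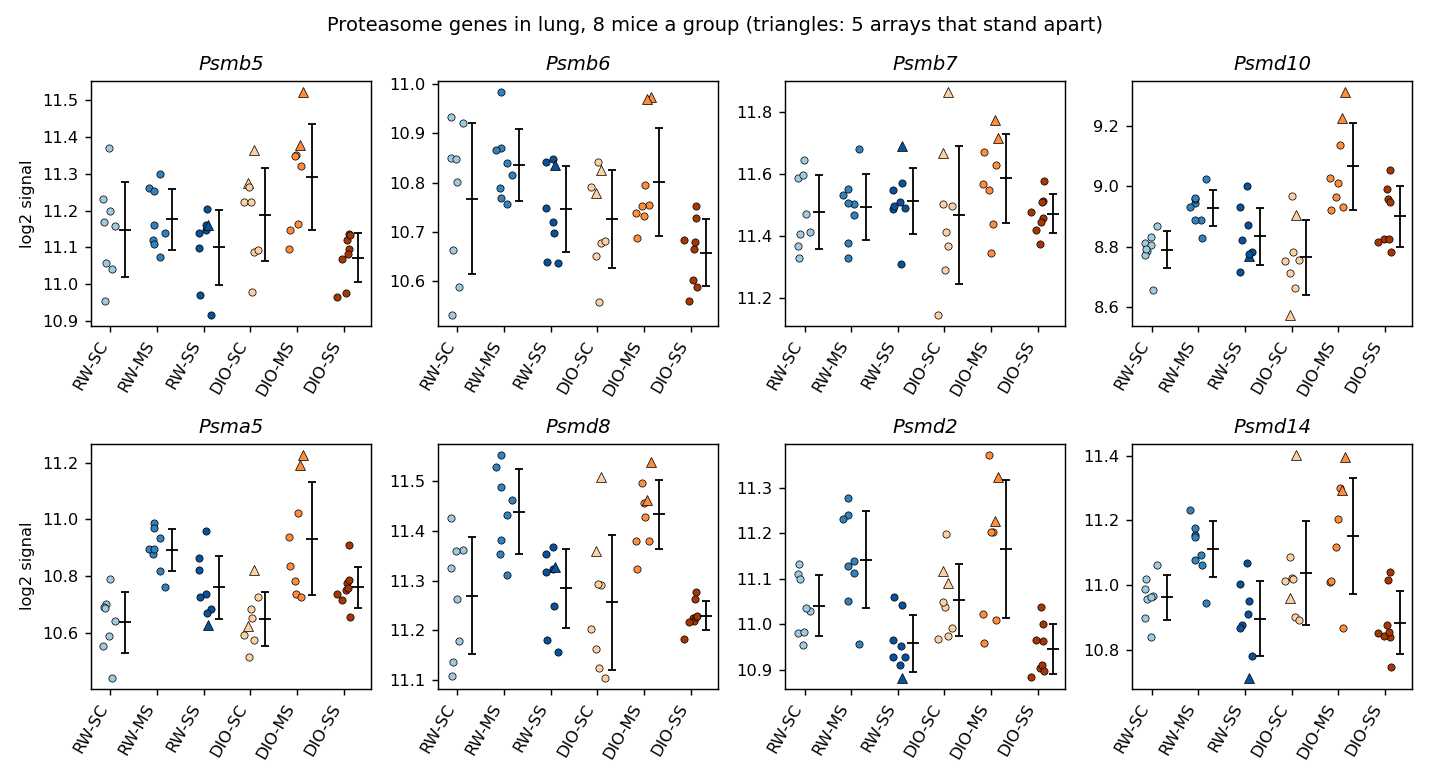
Log2 signal (y axis) of 8 proteasome genes in the 6 groups (x axis), 8 arrays each; points are single arrays, triangles the 5 arrays that stand apart, and bars the mean and standard deviation. Psma5 and Psmd10 sit higher in both mainstream groups than in the air groups, while the catalytic genes Psmb5, Psmb6 and Psmb7 overlap between groups; each y axis spans a narrow range and does not start at 0.

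Mainstream smoke raised a small number of proteasome genes and lowered none. In regular-weight animals 5 of the 45 passed upwards, where 14.7% of all genes passed in either direction and 6.61% upwards. In obese animals 4 of the 45 passed upwards, where 21.4% of all genes passed and 11.7% upwards. The shares of the 45, all upwards, were 11.1% and 8.89%. In regular-weight animals this lay below the share of all genes called in either direction but above that called upwards. In obese animals it lay below both. Their median difference was 0.03 and 0.06, and that of all genes -0.03 and -0.02. The comparisons with air in a given diet share the air controls of that diet. Markers of other cells moved in these comparisons too. Of 10 macrophage markers 6 were higher and 1 lower in regular-weight animals, and 7 were higher and 2 lower in obese animals. Of 7 markers of dividing cells 5 and 6 were higher. Of 6 smooth muscle markers 0 and 6 were lower, and in obese animals their mean log2 signal ran from 10.68 to 11.56 in air and from 9.47 to 10.63 in mainstream smoke. Of 9 lung markers 4 were lower and 0 higher in regular-weight animals, and 1 was higher and 0 lower in obese animals. The part of these cells was not tested.

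Psma5, an alpha-ring subunit, was called in both diets. Its log2 signal had a lowest, median and highest value of 10.44, 10.67 and 10.79 in RW-SC and 10.76, 10.90 and 10.99 in RW-MS. The groups met only at the edge, with 7 of 8 smoke arrays above every air array, a difference of 0.25 ± 0.06 (SE, adjusted p = 0.0024). The values in obese animals were 10.52, 10.64 and 10.82 in DIO-SC and 10.73, 10.89 and 11.23 in DIO-MS. There 5 of 8 smoke arrays lay above every air array, a difference of 0.28 ± 0.06 (adjusted p = 3.7e-04), or 0.22 (adjusted p = 0.0041) without the 5 arrays. The probe sets of Psma5 disagreed in size: the other bright one gave 0.10 (adjusted p = 0.22) in regular-weight and 0.21 (adjusted p = 0.0053) in obese animals. Another, with a mean log2 signal of 4.02, gave -0.06 and -0.08.

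Psmd8, a subunit of the 19S lid, was the other gene called in both diets. In regular-weight animals its lowest, median and highest log2 signal was 11.11, 11.29 and 11.43 in air and 11.31, 11.45 and 11.55 in mainstream smoke, and 5 of 8 smoke arrays lay above all air arrays. The difference was 0.17 ± 0.05 (adjusted p = 0.014). In obese animals the values were 11.11, 11.25 and 11.51 in air and 11.32, 11.44 and 11.54 in smoke, a difference of 0.18 ± 0.05 (adjusted p = 0.0062). The high air value was that of DIO-SC-7, and without the 5 arrays the difference was 0.21 (adjusted p = 0.0016).

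The other 3 genes called in regular-weight animals were Psme4, Psmd12 and Psmc4. Psme4 encodes PA200, a large activator that caps the core in place of the 19S particle. Its log2 signal ran from 9.60 to 9.82 in air, with a median of 9.73, and from 9.845 to 9.999 in mainstream smoke, with a median of 9.90. The groups did not overlap, and the difference was 0.19 ± 0.05 (adjusted p = 0.0066). Psmd12, another lid subunit, ran from 9.95 to 10.17 with a median of 10.06 in air and from 10.12 to 10.27 with a median of 10.17 in smoke, a difference of 0.13 ± 0.04 (adjusted p = 0.035). Psmc4, an ATPase of the 19S base, had the largest of these differences and the widest spread, 10.07 to 10.91 in air and 10.39 to 11.07 in smoke, with a difference of 0.32 ± 0.11 (adjusted p = 0.044). Its second probe set gave -0.06, so the rise of Psmc4 held for 1 of its 2 probe sets. With the 5 arrays left out, none of which belongs to these groups, the count in regular-weight animals was 11. Of these 10 were higher, and Psmb2, a core subunit, was lower, at -0.14 (adjusted p = 0.015, limma). The share of all genes called in that refit is not given here.

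In obese animals the remaining calls were Psme1, described with the immunoproteasome genes below, and Psmd10. Psmd10 encodes gankyrin, a chaperone of 19S assembly that is also known as an oncoprotein. Its lowest, median and highest log2 signal was 8.57, 8.76 and 8.97 in DIO-SC and 8.92, 9.02 and 9.31 in DIO-MS, with 5 of 8 smoke arrays above all air arrays. The difference was 0.30 ± 0.05 (adjusted p = 2.4e-05), a 1.23-fold change, and 0.23 (adjusted p = 0.0011) without the 5 arrays. In regular-weight animals Psmd10 differed by 0.14 and did not pass with all arrays, but did without the 5 (adjusted p = 0.020). When the diets were compared in their response to mainstream smoke, 0 of the 45 genes passed (limma; 4 at an unadjusted p below 0.05; 0.888% of all genes called). The smallest p values there belonged to Psme1, with 0.35 ± 0.12 (adjusted p = 0.14), Psmd9, with 0.21 ± 0.08 (adjusted p = 0.20), and Psmd12, with -0.16 ± 0.06 (adjusted p = 0.22).

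With all arrays, sidestream smoke raised none of the 45 genes against air in either diet. In regular-weight animals 0 passed (limma; 6 at an unadjusted p below 0.05), where 2.17% of all genes were called. The smallest p there was that of Psmd1, the large scaffold of the 19S base, at -0.15 ± 0.04 (adjusted p = 0.057). It passed when DIO-SC-7 was left out or when dim genes were not tested. In obese animals 2 passed, both downwards, where 6.85% of all genes were called and 2.59% downwards. Psmd1 ran from 10.368 to 10.693 in DIO-SC, with a median of 10.489, and from 10.246 to 10.367 in DIO-SS, with a median of 10.314. The groups did not overlap, though the gap between them was narrow, and Psmd1 fell by 0.21 on the log2 scale (SE 0.04, adjusted p = 0.0013), and by 0.25 without the 5 arrays (adjusted p = 3.2e-04). Psmd6, a lid subunit, had a lowest, median and highest value of 10.61, 10.77 and 10.86 in air and 10.50, 10.62 and 10.71 in smoke, a difference of -0.15 ± 0.04 (adjusted p = 0.021). That call was lost without the 5 arrays (adjusted p = 0.057), and its other probe set differed by 0.003 (adjusted p = 0.99). With the 5 arrays left out, Psmc2, an ATPase, also passed (-0.16, adjusted p = 0.041), and the core chaperone Psmg2 passed upwards (0.23, adjusted p = 0.040).

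The responses of the diets to sidestream smoke differed for 0 of the 45 genes (limma; 3 at an unadjusted p below 0.05; 0.654% of all genes called). The nearest were Psmd6 with -0.15 ± 0.06 (adjusted p = 0.29), Psmd12 with -0.15 ± 0.06 (adjusted p = 0.31) and Psme4 with -0.16 ± 0.07 (adjusted p = 0.34). Heat shock genes, whose proteins hold unfolded proteins for refolding or disposal, moved in the same comparisons. In obese animals 11 of the 12 measured were lower in sidestream smoke than in air, and their mean log2 signal ran from 11.62 to 12.03 in DIO-SC, 11.05 to 11.32 in DIO-SS and 10.76 to 10.94 in RW-SC. Their part in the proteasome values was not tested.

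With all arrays, more proteasome genes passed between the smokes than between either smoke and air, in each diet. With the 5 arrays left out, that order did not hold in regular-weight animals. There 6 passed between the smokes and 11 between mainstream smoke and air, and in obese animals the counts were 5 and 4. The shares of all genes called in these refits are not given here. With all arrays, in obese animals 12 of the 45 genes (26.7%) were higher in mainstream than in sidestream smoke and none was lower. Of all genes 16.8% were called, and 8.83% upwards. In regular-weight animals 5 were higher and 1 lower, 13.3% together, where 9.77% of all genes were called, 6.05% upwards and 3.72% downwards. The median difference of the 43 proteasome genes was 0.07 in regular-weight and 0.11 in obese animals, while that of all genes was -0.02 and -0.04. Of the 45 genes, 32 (71.1%) lay above 0 in both diets, against 28.7% of all genes. The comparisons in the diets share no array. Genes of this comparison were named after their values were seen.

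All 5 genes higher in regular-weight animals were among the 12 of obese animals (100% of the one list and 41.7% of the other). For all genes, 572 were called higher in both, 76.3% and 52.3% of the lists. The 5 encode non-ATPase subunits of the 19S particle. Psmd1 and Psmd2 are its large scaffolds, Psmd14 is the deubiquitinase that cuts ubiquitin chains from the bound protein, Psmd8 belongs to the lid, and Psmd11 is the lid subunit that bridges it to the core.

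Psmd14 had the largest difference of the 5 in either diet. Its lowest, median and highest log2 signal was 10.95, 11.12 and 11.23 in RW-MS against 10.72, 10.90 and 11.07 in RW-SS, a difference of 0.21 ± 0.06 (adjusted p = 0.021). In obese animals it was 10.87, 11.16 and 11.40 in DIO-MS against 10.75, 10.85 and 11.04 in DIO-SS, a difference of 0.27 ± 0.06 (adjusted p = 0.0020). The groups overlapped in both diets, and 6 and 5 of 8 mainstream arrays lay above every sidestream array. The air groups lay between, with medians of 10.97 and 11.02.

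Psmd2 had a lowest, median and highest value of 10.96, 11.13 and 11.28 in RW-MS and 10.88, 10.94 and 11.06 in RW-SS, a difference of 0.18 ± 0.05 (adjusted p = 0.010). In obese animals it had 10.96, 11.20 and 11.37 in DIO-MS and 10.88, 10.94 and 11.04 in DIO-SS, a difference of 0.22 ± 0.05 (adjusted p = 0.0010). Some mainstream arrays of each diet lay as low as the sidestream arrays. Psmd2 passed in both diets under all 14 alternative settings, Psmd8 under 13, Psmd14 under 12, Psmd1 under 9 and Psmd11 under 6.

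Psmd8 separated the smokes fully in obese animals, with 11.32 to 11.54 in DIO-MS and 11.18 to 11.28 in DIO-SS, a difference of 0.20 ± 0.05 (adjusted p = 0.0023). In regular-weight animals the difference was 0.15 ± 0.05 (adjusted p = 0.033). Psmd1 separated them in regular-weight animals, with 10.40 to 10.63 in RW-MS and 10.28 to 10.38 in RW-SS, a difference of 0.13 ± 0.04 (adjusted p = 0.048). It gave 0.14 ± 0.04 in obese animals (adjusted p = 0.024). Without the 5 arrays the adjusted p of Psmd1 was 0.054 and 0.052, so both calls rest on a narrow margin. Psmd11 gave 0.14 ± 0.04 and 0.13 ± 0.04 (adjusted p = 0.026 and 0.033), and 0.08 in obese animals without the 5 arrays (adjusted p = 0.19). Its other 3 probe sets with a mean log2 signal above 9 gave 0.13 to 0.17 in regular-weight and 0.06 to 0.13 in obese animals, and none of those passed.

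The other 7 genes called in obese animals were Psma4 and Psma5 of the alpha ring, Psmb5, the ATPase Psmc2, Psmd6, Psmd10 and Psme1, with differences from 0.15 to 0.32. Psmb5 was the catalytic gene among them, at 0.22 ± 0.06 (adjusted p = 0.0053), and 7 of 8 mainstream arrays lay above every sidestream array. Without the 5 arrays the count fell from 12 to 5, namely Psmb5, Psmd2, Psmd6, Psmd8 and Psmd14. Leaving out DIO-MS-1 or DIO-MS-6 alone left 8, and the shares of all genes called in these refits are not given here. The gene lower in mainstream smoke in regular-weight animals was Psmf1, which encodes PI31, first described as an inhibitor of the core. It ran from 9.15 to 9.28 in RW-MS and from 9.26 to 9.44 in RW-SS, a difference of -0.11 ± 0.03 (adjusted p = 0.035), and in obese animals it differed by -0.08.

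**Figure D3:**
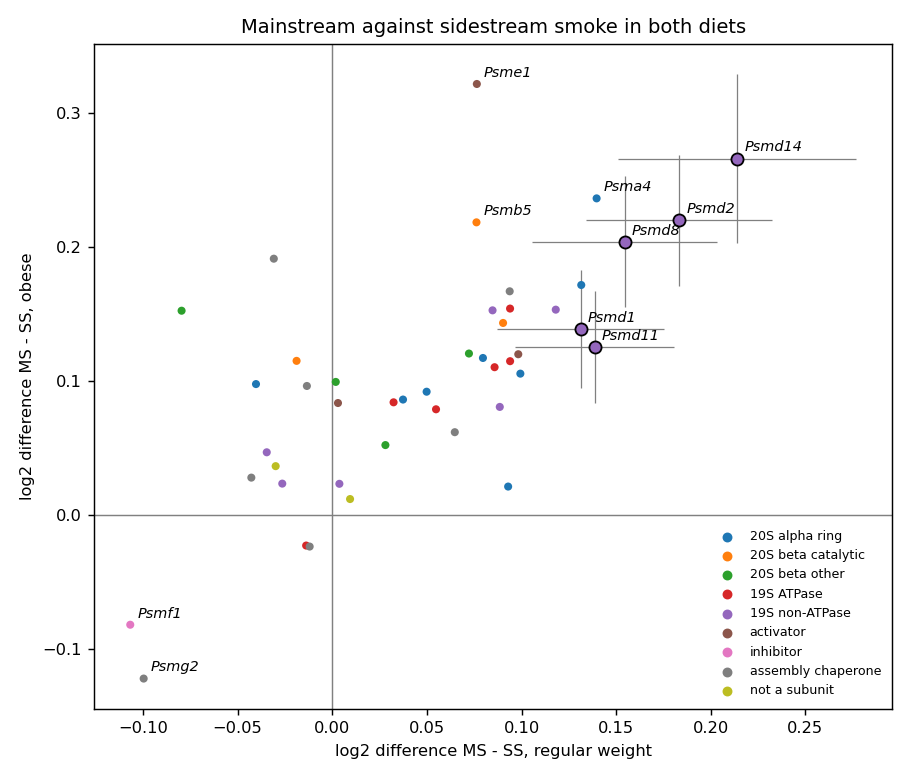
Log2 difference between mainstream and sidestream smoke for the 45 genes in regular-weight (x axis) and obese animals (y axis), coloured by role; ringed points with standard error bars passed in both diets. The 5 ringed genes are all 19S non-ATPase subunits, and 32 of the 45 points lie above 0 on both axes.

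Markers of other cells moved with this contrast. Of 10 macrophage markers 6 were higher in mainstream than in sidestream smoke in regular-weight and 5 in obese animals, and 1 and 2 were lower. The mean log2 signal of the list ran from 10.69 to 11.32 in RW-MS, 10.34 to 10.48 in RW-SS, 10.70 to 10.93 in DIO-MS and 10.26 to 10.49 in DIO-SS, and none of the ranges of mainstream arrays met that of sidestream arrays. Of 7 markers of dividing cells 3 and 6 were higher, and their mean ran from 6.84 to 8.40 in RW-MS, 6.20 to 6.50 in RW-SS, 7.20 to 8.42 in DIO-MS and 6.45 to 7.17 in DIO-SS. Of 6 smooth muscle markers 5 were lower in mainstream than in sidestream smoke in obese animals, with a median difference of -0.62, and their mean ran from 9.47 to 10.63 in DIO-MS and 10.69 to 11.13 in DIO-SS. No marker signal is at 0 on this scale. The part of these cells in the proteasome values was not tested.

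The windows upstream of these 5 genes are shown because the genes differed together. Each is the 250 bases before the annotated start (RefSeq, GRCm38.p6), 5′ to 3′ on the gene's strand, with the letters CTTCCG or their reverse complement in capitals, the core that ETS factors are known to bind. The windows are chr1:86064369-86064618 (plus strand) for Psmd1, chr16:20651402-20651651 (plus strand) for Psmd2, chr7:29180674-29180923 (minus strand) for Psmd8, chr11:80428365-80428614 (plus strand) for Psmd11 and chr2:61711444-61711693 (plus strand) for Psmd14.
Psmd1: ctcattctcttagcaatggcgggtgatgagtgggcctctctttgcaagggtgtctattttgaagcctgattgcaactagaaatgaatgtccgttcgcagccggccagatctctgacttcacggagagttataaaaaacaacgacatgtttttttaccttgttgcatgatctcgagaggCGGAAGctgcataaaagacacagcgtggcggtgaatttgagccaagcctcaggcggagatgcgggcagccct
Psmd2: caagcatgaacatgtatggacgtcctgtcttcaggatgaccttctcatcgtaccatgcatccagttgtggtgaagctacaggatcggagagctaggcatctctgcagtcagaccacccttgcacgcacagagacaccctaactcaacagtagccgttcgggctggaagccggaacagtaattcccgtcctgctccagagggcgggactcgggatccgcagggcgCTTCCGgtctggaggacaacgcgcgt
Psmd8: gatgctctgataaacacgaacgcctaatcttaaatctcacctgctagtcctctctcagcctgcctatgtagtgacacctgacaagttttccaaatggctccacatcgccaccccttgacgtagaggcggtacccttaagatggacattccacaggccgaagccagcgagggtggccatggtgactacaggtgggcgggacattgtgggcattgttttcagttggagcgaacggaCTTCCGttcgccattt
Psmd11: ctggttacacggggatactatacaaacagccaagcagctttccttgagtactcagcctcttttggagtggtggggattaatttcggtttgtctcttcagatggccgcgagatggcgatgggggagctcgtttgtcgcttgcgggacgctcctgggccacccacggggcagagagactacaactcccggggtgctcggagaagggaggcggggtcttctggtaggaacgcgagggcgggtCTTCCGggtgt
Psmd14: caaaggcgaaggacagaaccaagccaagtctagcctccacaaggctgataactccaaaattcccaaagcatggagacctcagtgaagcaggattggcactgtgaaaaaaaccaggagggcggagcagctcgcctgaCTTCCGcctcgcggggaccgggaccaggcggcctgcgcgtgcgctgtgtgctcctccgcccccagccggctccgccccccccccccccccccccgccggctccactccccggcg
Each of the 5 held 1 match, ending 67 bases before the start in Psmd1, 21 in Psmd2, 11 in Psmd8, 6 in Psmd11 and 109 in Psmd14. Of the 37 proteasome windows 19 held it (51.4%), against 15.3% of all 27025 genes and 24.1% of the 9888 genes that the array names. Of the 12 genes called in obese animals 8 held it. The 19 and the 8 both include the 5 whose windows were read before the motif was picked. The others of the 8 were Psma4, Psmc2 and Psmd6. The median GC content was 58.0% in the 37 windows and 58.4% over the genes of the array. This motif was the last of 8 searched, picked after the printed windows had been read, so its share is a description. The share of the 37 for the other motifs was 37.8% for CCAAT (39.8% of array genes), 5.41% for the heat shock element GAANNTTC (6.59%), 8.11% for the interferon-stimulated response element (3.35%), 2.7% for the interferon gamma site TTCNNNGAA (7.31%), 10.8% for the E-box CACGTG (9.19%) and 0 for the cAMP element TGACGTCA (2.53%). All were searched on both strands, where matches of different motifs may overlap.

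The 6 groups were ranked by their mean gene by gene. Among the 43 proteasome genes, 20 had their lowest group mean in DIO-SS, 9 in DIO-SC, 6 in RW-SC, 4 in RW-MS and 2 each in RW-SS and DIO-MS. The highest mean fell in RW-MS for 14 genes and in DIO-MS for 12. With the 5 arrays left out, it fell in RW-MS for 20 and in DIO-MS for 4, and the lowest in DIO-SC for 13. On the arrays of DIO-SS between 3 and 18 of the 43 genes lay above their mean over all arrays, with a median of 7. The median was 30.5 in DIO-MS, with a range of 10 to 38, or 24 without the 5 arrays, and 29.5 in RW-MS, with a range of 16 to 36. It was 21 in RW-SC and 17.5 in each of RW-SS and DIO-SC. No array of DIO-SS exceeded 18, but the groups overlapped, and the 43 genes of an array share its RNA and normalization. Neither the ranking nor these counts were made for all genes, so whether they are particular to the proteasome was not tested. The count of genes lowest in DIO-SS was 18 with each array centred on its median and 18 without the 5 arrays. Between the diets within sidestream smoke 0 of the 45 genes passed (limma, 3 at an unadjusted p below 0.05). Of all genes 0.976% were called. Of the 45 genes 38 lay below 0 and 15.6% above it, against 48.6% of all genes above 0. Within mainstream smoke 0 passed as well (2 at an unadjusted p below 0.05; 1.21% of all genes called).

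**Figure D4:**
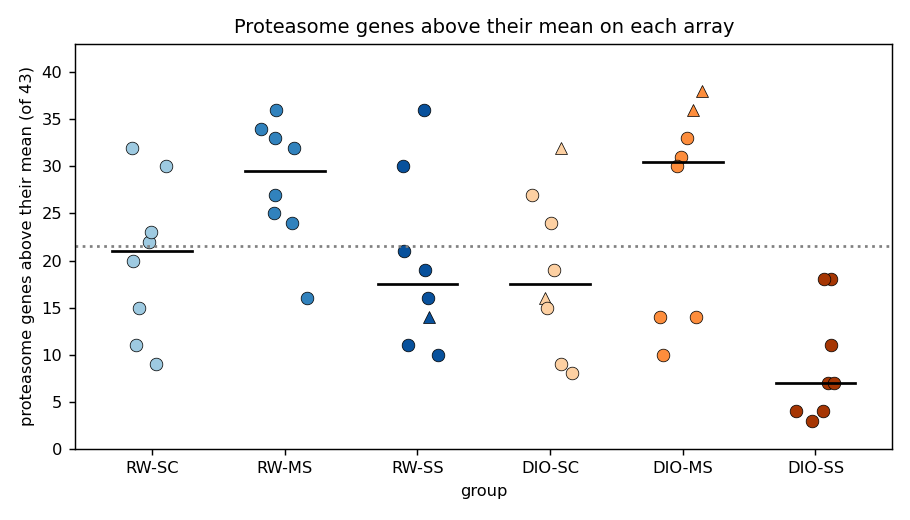
Number of the 43 proteasome genes (y axis) above their mean over all 48 arrays on each array, by group (x axis); lines are group medians, triangles the 5 arrays that stand apart, and the dotted line marks an even split. The DIO-SS arrays lie between 3 and 18, below the medians of both mainstream groups, 29.5 and 30.5. The count was not made for all genes.

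With all arrays Psme1 had the widest span of group means among the 45 genes, while the spread within groups was widest for Psmc4 (SD 0.23, against 0.17 for Psme1). Psme1 encodes PA28 alpha, which forms with the product of Psme2 an interferon-inducible activator of the core. Its lowest, median and highest log2 signal was 11.70, 11.88 and 12.06 in RW-SC, 11.82, 11.96 and 12.03 in RW-MS and 11.64, 11.86 and 12.21 in RW-SS. In obese animals it was 11.46, 11.69 and 11.88 in DIO-SC, 11.82, 11.98 and 12.61 in DIO-MS and 11.66, 11.78 and 11.85 in DIO-SS. The high values were those of DIO-MS-1, 12.61, and DIO-MS-6, 12.57, while the other 6 arrays of the group ran from 11.82 to 12.06.

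Against air in obese animals Psme1 was 0.41 ± 0.08 higher (adjusted p = 2.5e-04), a 1.33-fold change, with 6 of 8 arrays above every air array. In regular-weight animals the difference was 0.06 ± 0.08 (adjusted p = 0.71). Without the 5 arrays Psme1 was 0.21 ± 0.07 higher in obese animals (adjusted p = 0.023), and its difference from sidestream smoke went from 0.32 (adjusted p = 0.0052) to 0.16 (adjusted p = 0.10). Part of the difference in obese animals lay in the air controls, where the group mean was 11.69 against 11.89 in regular-weight animals, a difference of -0.20 ± 0.08 (adjusted p = 0.14). The probe set that Psme2 shares with Psme2b behaved alike in obese animals, with 0.49 ± 0.09 for mainstream smoke against air (adjusted p = 4.0e-05), and gave 0.21 ± 0.09 in regular-weight animals (adjusted p = 0.095).

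The inducible catalytic genes, which the rule left out, were higher in the same arrays. In obese animals mainstream smoke exceeded air by 0.61 ± 0.17 for Psmb8 (adjusted p = 0.0076), 0.51 ± 0.19 for Psmb9 (adjusted p = 0.045) and 0.33 ± 0.13 for Psmb10 (adjusted p = 0.051). Array DIO-MS-1 had 12.22 for Psmb8 and DIO-MS-6 had 11.95, while the other 6 ran from 10.69 to 10.81. Leaving out the 5 arrays, the differences were 0.36 (adjusted p = 0.033), 0.19 (adjusted p = 0.46) and 0.07 (adjusted p = 0.70). Obese minus regular-weight air controls in that refit gave -0.38 for Psmb8 (adjusted p = 0.024, limma), -0.43 for Psmb9 (adjusted p = 0.045) and -0.19 for Psmb10 (adjusted p = 0.24). With all arrays these values were -0.30, -0.39 and -0.19, and none passed. Interferon response genes stood at a mean log2 signal of 12.01 on DIO-MS-1 and 11.83 on DIO-MS-6. On the other 6 arrays of that group they stood between 8.41 and 8.62. With all arrays 8 of 14 were called higher than in air. Of 7 MHC class I presentation genes 6 were higher, among them Tapbp (0.42 ± 0.08, adjusted p = 1.1e-04), the peptide trimmer Erap1 (0.32 ± 0.07, adjusted p = 0.0011) and H2-K1 (0.35 ± 0.09, adjusted p = 0.0041). High values were not confined to DIO-MS-1 and DIO-MS-6. RW-SS-8 had 12.21 for Psme1 and 11.65 for Psmb8, with the interferon list at 8.92. On RW-MS-7 that list stood at 10.23 and Psme1 at 12.02. The part of the interferon and MHC class I genes in the rise of Psme1 was not tested.

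**Figure D5:**
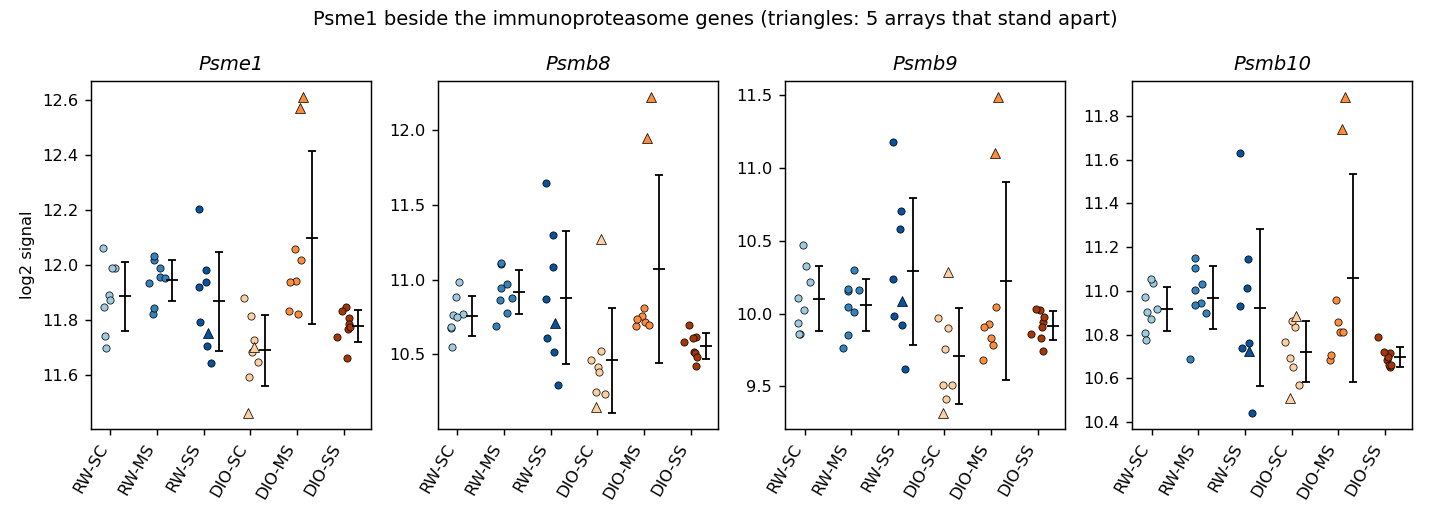
Log2 signal (y axis) of Psme1, Psmb8, Psmb9 and Psmb10 in the 6 groups (x axis), 8 arrays each; points are arrays, triangles the 5 arrays that stand apart, bars the mean and standard deviation. The top triangles in DIO-MS are DIO-MS-1 and DIO-MS-6, which lie above the other 6 arrays for all 4 genes; y axes do not start at 0.

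The diets differed in air for 2 of the 45 genes, both lower in obese animals, where 8.28% of all genes were called and 5.99% downwards. Psmd9, an assembly chaperone of the 19S base, had a lowest, median and highest log2 signal of 8.30, 8.48 and 8.59 in RW-SC and 8.06, 8.31 and 8.47 in DIO-SC, a difference of -0.18 ± 0.06 (adjusted p = 0.030). Psmf1 ran from 9.23 to 9.43 and from 9.13 to 9.30, a difference of -0.10 ± 0.03 (adjusted p = 0.046). In each case 4 of 8 obese arrays lay below every regular-weight array. Neither passed without the 5 arrays, with an adjusted p of 0.073 for Psmd9 and 0.19 for Psmf1, and leaving out DIO-SC-3 alone ended both calls as well. The heat shock list was higher in obese animals in the same comparison, 11 of 12 genes, with Hspa1b at 3.01 ± 0.24 (adjusted p = 1.5e-12). Its part in the proteasome values was not tested.

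The chaperones Psmg1 to Psmg4, which build the 20S core, did not pass in any comparison with all arrays. Some genes of the set are known from germ cells. Psma8, the testis form of an alpha subunit, was dim, between 4.11 and 5.10 over all arrays, and germ cell markers lay at a mean of 4.20 to 4.57. It differed by -0.22 ± 0.11 between sidestream smoke and air in regular-weight animals (adjusted p = 0.30) and by -0.18 to 0.02 in the other comparisons with air and between diets in air. Psmc3ip lay between 6.99 and 7.66 and differed from air by -0.06 to 0.05, with no call, and by 0.12 ± 0.07 between the diets in air (adjusted p = 0.26).

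Of 19 measured genes whose proteins sit on or feed the 26S proteasome, 4 were higher and 1 lower in mainstream smoke than in air in regular-weight animals (14.7% of all genes called), with a median difference of 0.03. Among them were the thioredoxin-like Txnl1 (0.19 ± 0.05, adjusted p = 0.0076), the zinc finger gene Zfand2a (0.23 ± 0.07, adjusted p = 0.026) and the deubiquitinase Usp14 (0.17 ± 0.06, adjusted p = 0.044). In obese animals (21.4% of all genes called) 0 were higher and 2 lower, the shuttle factor Ubqln1 (-0.22 ± 0.05, adjusted p = 0.0025) and the p97 cofactor Nsfl1c (-0.19 ± 0.04, adjusted p = 0.0015). Sidestream smoke lowered 0 of the 19 in regular-weight and 3 in obese animals and raised none, where 2.17% and 6.85% of all genes were called. Of 8 assembly factors, which include members, 1 was higher with mainstream smoke in obese animals, Psmd10. Of the ubiquitin pathway list only Uba3 and Nedd8 were measured, and neither passed.

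Of 14 measured regulators of proteasome genes, mainstream smoke raised none in either diet and lowered 1 in regular-weight and 2 in obese animals, where 14.7% and 21.4% of all genes were called. These were Ybx1 (-0.18 ± 0.06, adjusted p = 0.047) and, in obese animals, the CCAAT-binding subunit Nfyc (-0.16 ± 0.05, adjusted p = 0.011) and Ngly1 (-0.12 ± 0.04, adjusted p = 0.046), the glycanase that processes NRF1. Nfe2l1, which encodes NRF1, differed by -0.12 ± 0.06 in regular-weight animals (adjusted p = 0.17). Of 16 NRF2 targets, 3 were higher and 1 lower with mainstream smoke in regular-weight animals, and 2 were higher and 5 lower in obese animals, against the same shares of all genes. The glutathione synthesis gene Gclc rose by 0.56 ± 0.13 (adjusted p = 0.0016) and 0.51 ± 0.13 (adjusted p = 0.0022), and the cystine carrier Slc7a11 by 0.62 ± 0.17 (adjusted p = 0.010) and 0.83 ± 0.17 (adjusted p = 2.7e-04). Gsta2 went the other way and had the lowest difference of the list in both diets, -0.49 in regular-weight and -0.87 in obese animals. The lists here were chosen with earlier results of these data known.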

How the data were processed

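The authors deposited log2 signals per probe set, made with RMA per the submitters' processing notes (background subtraction, quantile normalization and a summary over probes); no source used here says whether all 48 arrays were normalized together. These deposited log2 values ran from 2.50 to 15.3, and array medians from 7.82 to 7.94. No raw scans were used here.

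Probe sets were named by GEO's platform annotation. Of 22690, 20380 had 1 symbol, and the one with the highest mean over 48 arrays stood for a gene, which gave 12393 genes. The 45 genes had 82 probe sets, and 21 had several. A mean per group was fitted over all arrays with limma 3.58.1 in R 4.3.3 (lmFit, eBayes), with 11 contrasts, two-sided, and Benjamini-Hochberg adjustment over all genes. Each p of a gene with all arrays comes from this fit, and those of single probe sets or under an alternative from refits. The scripts were tested on simulated data. Promoter windows were searched in Python 3.11.15 with pandas 2.3.3, and plots drawn with matplotlib 3.10.9.

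Genes given in full were the 5 smallest adjusted p among those called against air and between diets in air, the 3 smallest p in each test of a diet difference, and a fixed set: Psmb5 to Psmb7, Psme1, Psma8 and Psmc3ip. Members, lists and alternatives were chosen with earlier results of these data known. The alternatives changed the probe set, the filter on dim genes (highest group mean of at least 6), centring, the variance model, the arrays fitted, array weights, a replicate block and the 5 arrays that stand apart. The labels call the animals biological replicates. Their numbers were checked for pairing: same-numbered arrays of different groups deviated from their group means with a mean correlation of 0.015 (-0.39 to 0.48). For differently numbered arrays it was 1.1e-04 (-0.56 to 0.56). No pairing was seen on average, but a mean over all numbers cannot show whether some of them share a batch. The number of arrays limits the precision.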

Additional observations from a re-analysis of the deposited data

Results flagged for a closer look

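Among the 16 genes of the proteasome examined array by array, 96 sets of 8 arrays were screened for a single value far from the rest, and 4 were found, where chance alone gives about 4.8 (1 in 20). Psmd1 had a log2 signal of 10.281 on RW-SS-6, below the other 7 arrays of its group, which ran from 10.339 to 10.38. Psme4 had 10.124 on the same array, above the others at 9.7076 to 9.8903. RW-SS-6 is 1 of the 5 arrays that stand apart by their correlation, and it carried fat markers at 10.58. Psmd10 had 8.6581 on RW-SC-4, below the others at 8.7729 to 8.8695, and Psmd9 had 8.1102 on RW-MS-7, below the others at 8.3178 to 8.484.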

How the results depend on the processing

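Each count of called genes was recomputed under 14 alternatives. Of these 154 values 135 stayed within 1.5 times the count given, and the others follow, with cause not tested. With only probe sets without a suffix, 3 genes were called for mainstream smoke in regular-weight animals, 4 for sidestream smoke in obese animals and 3 between the smokes in regular-weight animals. Psma5 then gave -0.0611 and -0.0761 for mainstream smoke in regular-weight and obese animals and Psmc4 gave -0.0621, since another, for Psma5 very dim, probe set stood for the gene. Without dim genes 1 was called for sidestream smoke in regular-weight animals. Centring left 3 between the smokes in regular-weight animals. Fits on the compared groups alone gave 0 for diet in air and 1 for sidestream smoke in obese animals. Array weights gave 0 for diet in air, 8 for mainstream smoke in regular-weight animals, 6 for sidestream smoke in obese animals and 3 for diet within sidestream smoke. With the replicate block, which the labels do not support as a pairing, 1 was called for diet in air. Without the 5 arrays that stand apart, 0 were called for diet in air, 11 for mainstream smoke in regular-weight animals and 5 between the smokes in obese animals. Leaving out 1 of these arrays at a time gave 0 to 2 for diet in air, 4 to 7 for mainstream smoke in obese animals and 0 to 1 for sidestream smoke in regular-weight animals. The shares of all genes called under the alternatives are not given here, so these counts show only how the calls moved. Of 658 values of single genes, 633 stayed called or stayed not called, and in 3 a gene called in the main fit changed direction. Changes of direction in genes not called there were not counted. For example, Psmb5 between the diets in air went from 0.04 to -0.003 without the 5 arrays. The lost calls include Psma5 in regular-weight animals with probe sets averaged (adjusted p = 0.14, limma), and, in fits on the compared groups alone, Psmc4 (0.070), Psmd8 in obese animals with mainstream smoke (0.078) and Psmd6 (0.077). Centring moved the median of all genes by at most 0.027. With signals summarized by the authors, cross-hybridization could not be examined, and 8 arrays a group limit what can be detected.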
